A study of Mus musculus with 7 samples.

Results

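The genes described here are 9 that had been listed as switched on in Purkinje cells of mice homozygous for *nm3888*, a spontaneous mutation of *Rreb1*, the gene of a zinc finger transcription factor that can raise or lower the transcription of its targets. They were *Ostn*, *Txlnb*, *Hmgn5*, *Gm45623*, *AC122818.4*, *Gm42372*, *Dcdc2a*, *Irak1bp1* and *Srp9*, 9 of the 55401 genes in the count files, and they were selected on this same contrast as genes with low counts in wild type and clear counts in the mutant. Their own genotype differences are therefore given as a description and without a test. The values went against the listing for 3 of the 9. *Gm42372* was lower in every mutant library than in any wild-type library, and *Irak1bp1* and *Srp9* were plainly present in wild type and less than 2-fold higher in the mutant. The remaining 6 had a wild-type mean under 2 CPM (counts scaled by each library's total and its TMM factor) and were higher in all mutant libraries.

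Purkinje cells are the output neurons of the cerebellar cortex. The RNA came from ribosomes carrying a hemagglutinin tag on RPL22 (the RiboTag method), which were pulled down from lysate of the whole cerebellum of 1 mouse per library. All mice were *Rpl22* fl/+ with *PCP2-Cre*, so the tag was placed by a Cre under a Purkinje cell promoter, and all were 3 weeks old. There were 3 wild-type mice and 4 *nm3888*-/- mice. By the labels, mutants 3 and 4 were male and the remaining 5 animals were female. The *nm3888* mutation arose on the NOD strain, and per the methods the mutation was moved to C57BL/6J by backcrossing, so mutants can carry NOD-derived sequence that wild types lack, most of all near *Rreb1*. The libraries fell into a first series (wild types 1 and 2, mutants 1 and 2) and a second series (wild type 3, mutants 3 and 4), which the file headers tie to different aligners.

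Several of these genes are known from other tissues. *Ostn* encodes osteocrin, also called musclin, a secreted peptide of bone and muscle that binds the clearance receptor of the natriuretic peptides, and it is known as an activity-dependent gene in primate neurons. *Txlnb* encodes beta-taxilin, the muscle-enriched member of a family of coiled-coil proteins that bind syntaxins, the membrane proteins that drive vesicle fusion. *Hmgn5*, on the X chromosome, encodes a nucleosome-binding protein that loosens chromatin compaction. Genes kept silent in one cell type and transcribed in another depend on repressive chromatin, and their appearance outside their usual tissue is called ectopic expression.

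Library totals ranged from 18023017 to 107937386 counts, with wild type 3 the deepest. Across all genes, 17621 passed the filter on low counts, 455 of them were higher and 1049 lower in the mutant (edgeR quasi-likelihood test with the library series as a term, adjusted p under 0.05), which is 8.54% of those tested, with 2.58% higher. When replicate blocks replaced the series term, 812 were called. The number of Purkinje cells and the RNA per cell cannot be told apart in bulk libraries. The 12 Purkinje cell markers were abundant in all libraries, with a summed level of 47669 to 53467 CPM in wild type and 44329 to 59245 CPM in the mutant. *Rreb1* itself did not pass the test, with 17.7, 17.4 and 14.4 CPM in wild type and 20.2, 19.1, 23.7 and 10.8 CPM in the mutant (log2 fold change 0.20 ± 0.23 SE, adjusted p = 0.64, edgeR). The *nm3888* insertion is described in the study as removing the main brain transcript of *Rreb1*. There, a northern probe for total *Rreb1* lost that transcript in mutants. An in situ probe to all its transcripts gave no signal in mutant brain. No lower total was seen here in the ribosome-bound RNA of the libraries labelled *nm3888*-/-, which differs from those reports, and the reason was not tested. The study also found other long *Rreb1* transcripts at similar levels in both genotypes, and a fusion of the main transcript with the insertion. The gene-level counts cover all transcripts together and were not split by transcript. They did not bear out these labels, and mutant means labelled *nm3888*-/- throughout.

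All 9 genes passed the filter. In the fit, 8 of the 9 were called higher and 1 lower, beside 8.54% of all genes called and 2.58% called higher, and nothing is read from that count because the contrast chose them. The same holds for the 8 in which every mutant library lay above every wild-type library, which 5.16% of all tested genes did.

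*Ostn* lies at chr16:27307489-27351212 on the plus strand (build mm10). It had 0.988, 0.712 and 1.05 CPM in wild types 1 to 3 and 12.2, 9.89, 13.7 and 12.0 CPM in mutants 1 to 4. The lowest mutant library was 9.39 times the highest wild-type library, and the mutant libraries differed among themselves by at most 1.39-fold. The log2 fold change was 3.65 ± 0.18 (SE), and the ratio of mean CPM was 13.02 over all libraries and 12.2 in the second series alone. Per kilobase of exon, *Ostn* stood above 22.9% of tested genes in wild type and above 69.7% in the mutant, with a level of 0.645 ± 0.127 (SD, n = 3) and 8.40 ± 1.10 (SD, n = 4) CPM per kilobase. The one other gene with a matching stretch of transcript, the antisense *Gm32312*, had 0 counts in all libraries. The start of the *Ostn* coding sequence (390 bases in 3 exons, GENCODE M21) is shown because it encodes the secreted peptide, with the start codon in capitals.
Ostn: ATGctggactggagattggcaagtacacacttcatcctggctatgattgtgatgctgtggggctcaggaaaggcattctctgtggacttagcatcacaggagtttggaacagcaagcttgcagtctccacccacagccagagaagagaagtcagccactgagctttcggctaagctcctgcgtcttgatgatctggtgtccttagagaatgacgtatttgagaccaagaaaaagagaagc

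No partner gene of osteocrin was called higher beside it. Of 13 genes of the natriuretic peptide pathway, 11 were tested and 1 was lower, beside 8.54% of all tested genes called in either direction. That gene was *Npr1*, the guanylyl cyclase receptor of atrial natriuretic peptide, at 99.4 ± 43.4 CPM in the 3 wild types and 56.7 ± 17.8 CPM in the 4 mutants (SD; log2 fold change -0.92 ± 0.19 SE, adjusted p = 0.022, edgeR). The *Npr1* groups overlapped, since wild type 1 had 57.6 CPM and mutants 3 and 4 had 75.6 and 65.3 CPM. With the replicate block the *Npr1* adjusted p was 0.093, and the call was also lost without wild type 2 or 3 or mutant 2 or 4 (adjusted p = 0.053 to 0.15). *Npr3*, the clearance receptor that osteocrin binds, was named after its values were seen. It was low in both groups, with 0.515 ± 0.158 and 0.589 ± 0.126 CPM, and did not pass the test (adjusted p = 0.80, edgeR).

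*Txlnb* lies at chr10:17796226-17845665 on the plus strand. It had 1.46, 1.03 and 1.46 CPM in wild types 1 to 3 and 8.85, 13.4, 13.5 and 11.7 CPM in mutants 1 to 4. The groups were 6.05-fold apart at their nearest libraries. On the log2 scale *Txlnb* was 3.14 ± 0.21 (SE) higher, with ratios of 8.94 and 8.59 in the first and second series. No near-identical copy was found, and *Gm7584*, which overlaps it on the same strand, held at most 51 counts in a library.

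Among 7 taxilin and syntaxin genes, 2 were higher, beside 2.58% of all tested genes. Like all lists here, it was chosen with earlier results of these data known, so its calls are no independent support. *Stx1a*, a syntaxin of presynaptic membranes, lay at 2.13, 1.62 and 2.27 CPM in the wild types and at 11.6, 13.4, 12.7 and 11.6 CPM in the mutant (log2 fold change 2.59 ± 0.17 SE, adjusted p = 5.6e-05, edgeR). The *Stx1a* groups did not overlap, and its call held in all 14 alternative settings. *Stx4a*, another plasma membrane syntaxin, rose by less (log2 fold change 0.42 ± 0.11 SE, adjusted p = 0.046, edgeR), and its levels lay far apart between the series, at 6.60 and 6.49 CPM in wild types 1 and 2, 20.02 CPM in wild type 3, 9.22 and 9.30 CPM in mutants 1 and 2 and 24.2 and 25.6 CPM in mutants 3 and 4. The *Stx4a* call was lost with the replicate block (adjusted p = 0.16) and without each library in turn other than mutant 3.

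**Figure D1:**
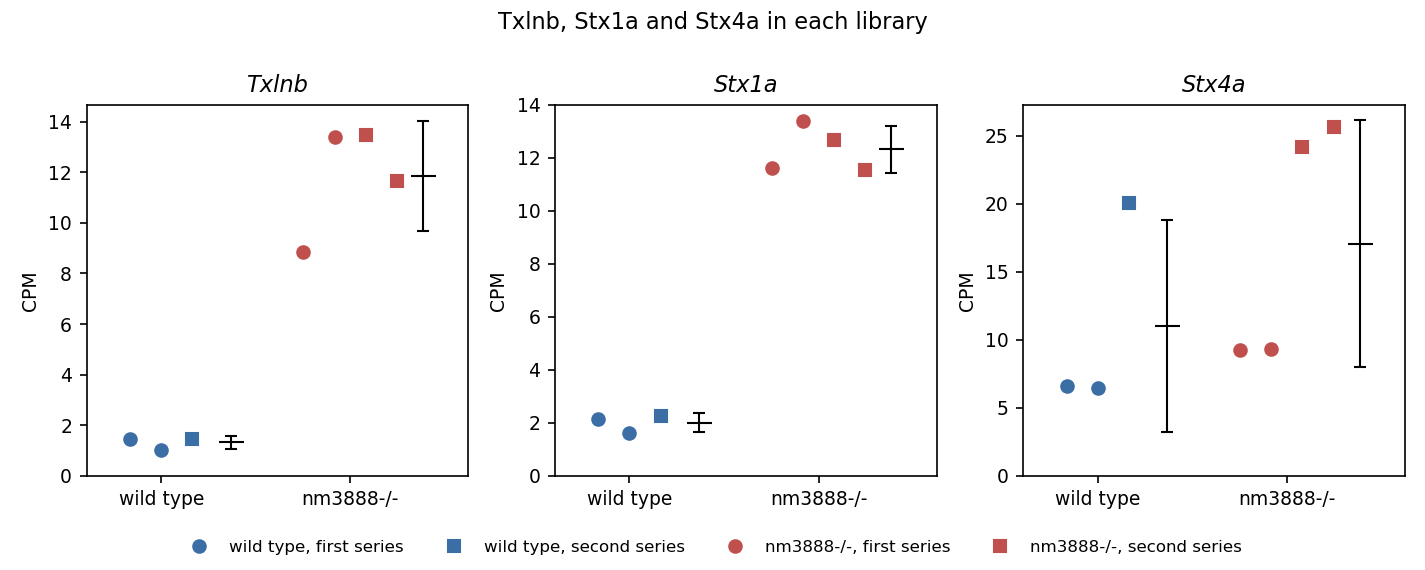
CPM (vertical axes, each with its own scale from 0) of *Txlnb*, *Stx1a* and *Stx4a* in 3 wild-type and 4 *nm3888*-/- libraries, with circles for the first series, squares for the second, and black bars for the mean and SD. *Txlnb* and *Stx1a* sat between 8.85 and 13.5 CPM in all mutant libraries and below 2.5 CPM in wild type, and *Stx4a* lay further apart between the series than between the genotypes.

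*Hmgn5* lies at chrX:109004534-109013404 on the minus strand. It had 1.74, 1.74 and 1.58 CPM in wild types 1 to 3 and 10.7, 14.3, 11.1 and 12.7 CPM in mutants 1 to 4. The nearest libraries of the groups were 6.17-fold apart, and the fitted log2 fold change was 2.88 ± 0.17 (SE). The gene is X-linked, and the ratio was 7.21 in the first series, in which all mice were female, and 7.53 in the second, in which the mutants were male and the 1 wild type female. *Gm11914*, a processed pseudogene 99.4% identical to *Hmgn5* over 507 bases, had 19, 14 and 6 counts in wild type and 71, 160, 24 and 23 counts in the mutant, so reads of the gene may be shared with it. With both summed, the ratio of means was 6.80. None of 10 tested genes of the HMGN and HMG families passed the test, and the most abundant of them, *Hmga1*, which binds AT-rich DNA, stood at 185 ± 14.2 and 190 ± 47.2 CPM (adjusted p = 0.78, edgeR).

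*Dcdc2a* encodes a doublecortin-domain protein that binds microtubules and is found in cilia, and lies at chr13:25056004-25210706 on the plus strand. It had 1.66, 1.66 and 2.44 CPM in wild types 1 to 3 and 4.93, 8.73, 8.68 and 6.88 CPM in mutants 1 to 4. The groups were 2.02-fold apart at the nearest libraries. Its log2 fold change was 1.88 ± 0.24 (SE), with ratios of 4.11 and 3.19 in the 2 series. Its level per kilobase stayed low, above 10.9% of tested genes in wild type and above 26.6% in the mutant. None of 5 tested genes of the doublecortin family passed the test, *Dclk1*, the most abundant and a microtubule-associated kinase, at 362 ± 43.1 and 312 ± 44.0 CPM (adjusted p = 0.44, edgeR).

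*Gm45623* and *AC122818.4* had the lowest wild-type levels and the highest ratios, and also the widest spread among mutants. *Gm45623*, a single-exon gene annotated as protein-coding under a name that gives no function, lies at chr13:56752371-56753827 on the minus strand. It had 0.277, 0.633 and 0.341 CPM in wild types 1 to 3, from 7, 16 and 35 counts, and 39.9, 64.4, 25.1 and 10.2 CPM in mutants 1 to 4. The mutant libraries spanned a 6.30-fold range, mutant 2 highest and mutant 4 lowest, yet the lowest was 16.2 times the highest wild type. The log2 fold change was 6.28 ± 0.48 (SE), with ratios of 115 in the first series and 51.7 in the second. Per kilobase, the gene went from above 13.2% to above 86.9% of tested genes. The annotated coding sequence (chr13:56752983-56753291, 309 bases, 70.2% G or C) begins as follows, shown because the gene name gives no description, with the start codon in capitals.
Gm45623: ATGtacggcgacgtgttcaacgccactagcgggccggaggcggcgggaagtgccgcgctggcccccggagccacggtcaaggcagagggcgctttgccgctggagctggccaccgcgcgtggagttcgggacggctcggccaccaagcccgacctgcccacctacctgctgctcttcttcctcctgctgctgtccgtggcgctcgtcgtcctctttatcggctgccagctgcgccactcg

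*AC122818.4*, a long intergenic noncoding RNA recovered here with tagged ribosomes, lies at chr17:87454969-87460364 on the minus strand. It had 1, 6 and 23 counts in wild types 1 to 3, or 0.0395, 0.237 and 0.224 CPM. In mutants 1 to 4 it had 18.6, 4.29, 7.92 and 3.08 CPM, a 6.05-fold range with mutant 1 highest. The log2 fold change was 5.32 ± 0.75 (SE), the least precise of the 9. The mutant coefficient of variation was 83.3% for *AC122818.4* and 66.2% for *Gm45623*, against 6.06 to 25.4% for the other 7 genes. The mutant that was highest for one was not the highest for the other, but mutant 4 was the lowest for both.

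*Gm42372* went the other way. This single-exon gene, annotated as protein-coding with no known function, lies at chr7:16983086-16988152 on the plus strand. It had 109, 108 and 84.4 CPM in wild types 1 to 3 and 7.96, 8.02, 12.8 and 8.23 CPM in mutants 1 to 4. The lowest wild-type library was 6.62 times the highest mutant library, and the gene fell by 3.45 ± 0.20 on the log2 scale. A stretch of its transcript matched transcripts of 472 other genes at 90% identity or more over at least 100 bases, so some of its reads may be uncertain.

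*Irak1bp1* and *Srp9* were expressed in both genotypes. *Irak1bp1*, which encodes a partner of the kinase IRAK1 in signaling to NF-kappaB, lies at chr9:82829540-82847687 on the plus strand and had 17.3, 20.8 and 20.5 CPM in wild types 1 to 3 and 36.3, 31.9, 36.2 and 35.9 CPM in mutants 1 to 4. The log2 fold change was 0.83 ± 0.11 (SE), with ratios of 1.79 and 1.76 in the 2 series. In the IRAK and Toll-like receptor list, 2 of 17 tested genes were higher and none lower, beside 8.54% of all tested genes called and 2.58% higher. *Irak2*, a kinase of that pathway, rose from 9.90 ± 2.16 to 17.5 ± 1.39 CPM (SD over 3 and 4 libraries; log2 fold change 0.80 ± 0.15 SE, adjusted p = 0.013, edgeR). *Tirap*, an adaptor of Toll-like receptors, was under 1.3 CPM in all libraries (log2 fold change 1.04 ± 0.27 SE, adjusted p = 0.047, edgeR), and its call was lost with the replicate block (adjusted p = 0.11) and without any of the 7 libraries. The *Irak2* call was lost without mutant 2 (adjusted p = 0.051) or wild type 2 (adjusted p = 0.053).

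*Srp9* encodes a subunit of the signal recognition particle, which directs nascent secretory proteins to the endoplasmic reticulum, and lies at chr1:182124737-182132407 on the plus strand. It had 29.7, 31.3 and 28.4 CPM in wild types 1 to 3 and 47.7, 63.7, 58.2 and 59.7 CPM in mutants 1 to 4, a log2 fold change of 0.95 ± 0.12 (SE). The groups were 1.53-fold apart at their nearest libraries. The value is uncertain because *Gm13736*, a processed pseudogene at chr2:87526145-87526397, is identical to *Srp9* over all of 253 aligned bases, so reads of that stretch could be counted for either. *Gm13736* had 1022, 1262 and 1639 counts in wild types 1 to 3, 907 and 1092 counts in mutants 1 and 2, and 8 and 9 counts in mutants 3 and 4. With the CPM of both summed, wild types had 70.1, 81.2 and 44.3 CPM and mutants 95.3, 96.2, 58.3 and 59.9 CPM. The groups then overlapped across the series but not within them. The ratio was 1.27 in the first series and 1.33 in the second, against 1.83 and 2.08 for *Srp9* alone. None of 9 other genes of the particle and its receptor passed the test, and *Srp14*, the partner of SRP9 in the particle, stood at 41.1 ± 16.3 and 42.7 ± 13.8 CPM (adjusted p = 0.70, edgeR).

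**Figure D2:**
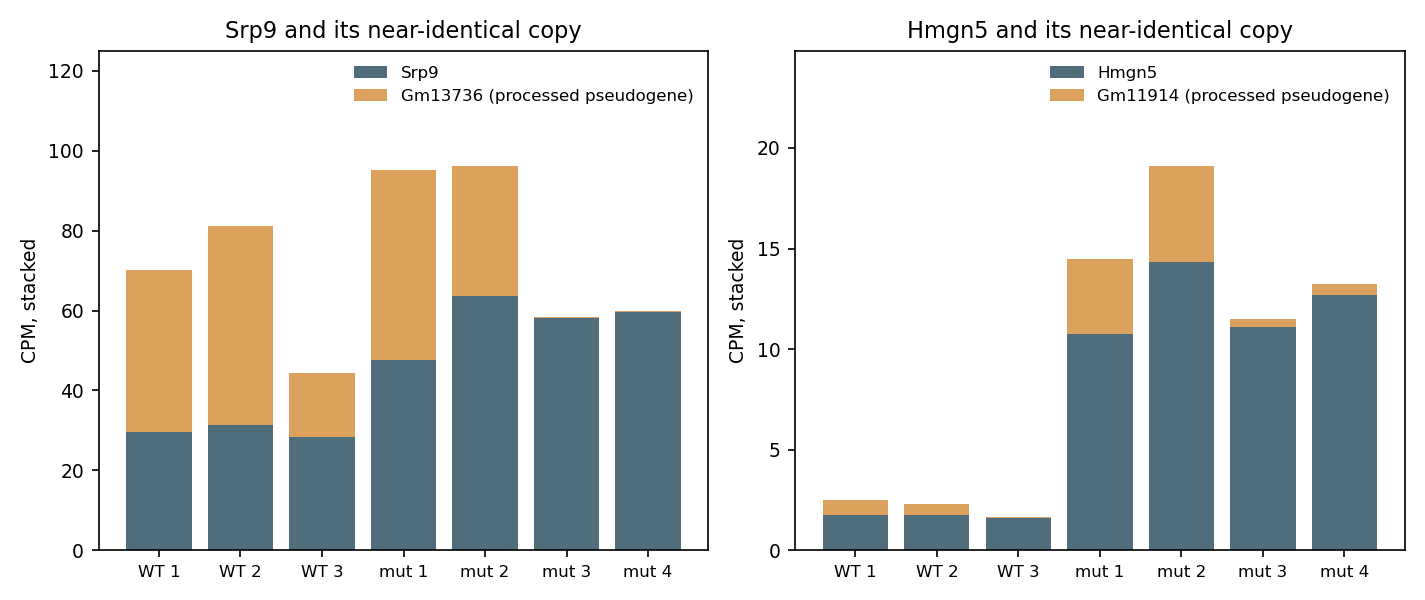
CPM of *Srp9* with its pseudogene *Gm13736* (left) and *Hmgn5* with its pseudogene *Gm11914* (right), stacked, in wild-type (WT) and mutant (mut) libraries. *Gm13736* made up much of the sum in all but mutants 3 and 4. Their sums of 58.3 and 59.9 CPM lay below the 70.1 and 81.2 CPM of wild types 1 and 2, from the first series. They lay above the 44.3 CPM of wild type 3, from the second series. *Hmgn5* with its copy was higher in all mutants.

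**Figure D3:**
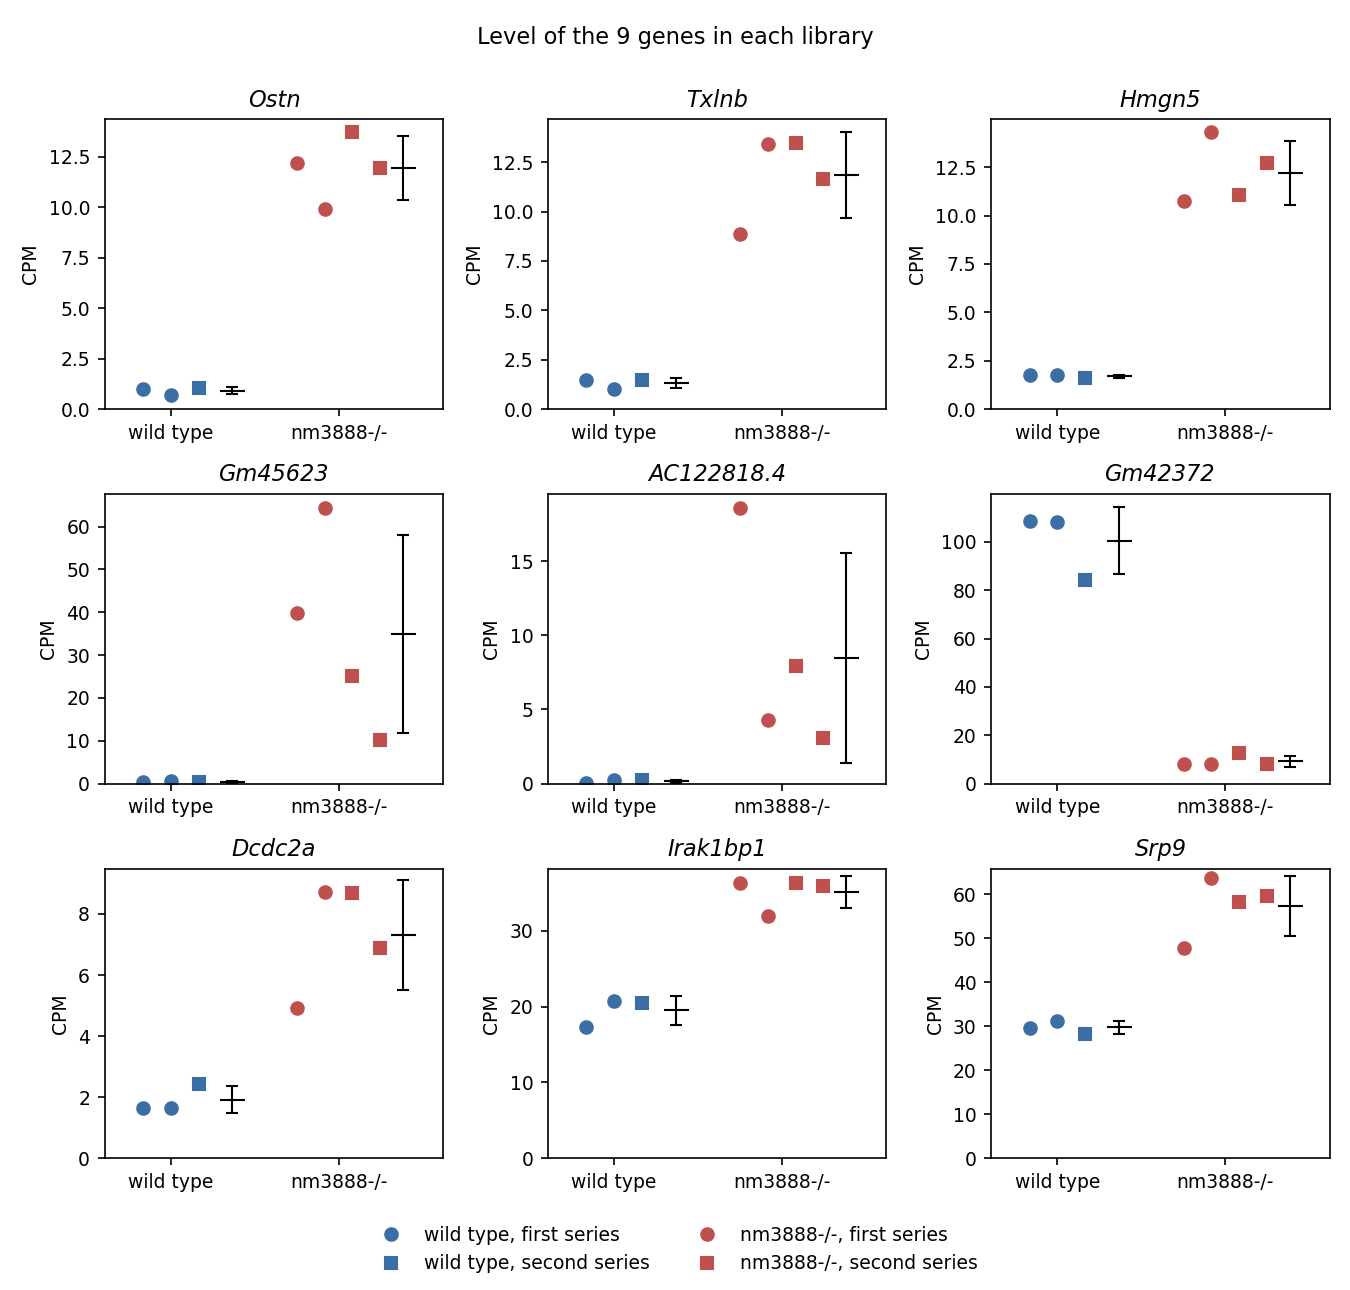
CPM of the 9 genes (vertical axes, each from 0 with its own scale) in 3 wild-type and 4 *nm3888*-/- libraries, with circles for the first series, squares for the second, and black bars for the mean and SD. The groups did not overlap for any of the 9, *Gm42372* was the one gene higher in wild type, and *Gm45623* and *AC122818.4* ranged 6.30-fold and 6.05-fold among mutants.

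The genotype difference was then compared between the library series. The genes were chosen on the same counts with the series as a term, which can favour genes alike in both series. The comparison is therefore a description and no independent check of the 9. None of the 9 passed the test of the interaction between genotype and series (edgeR), with adjusted p from 0.84 to 1.0, where 14 genes or 0.0795% of all tested genes did, and 1017 had an unadjusted p under 0.05. One of the 9 was among these, *Gm42372* (edgeR adjusted p = 0.84), whose difference was smaller in the second series by 0.76 ± 0.31 on the log2 scale. The interaction was imprecise for the 2 genes of widest spread, at -1.15 ± 0.95 for *Gm45623* and -1.71 ± 1.64 for *AC122818.4*. The second series held 1 wild type, and sex of the mutants and series cannot be told apart there.

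**Figure D4:**
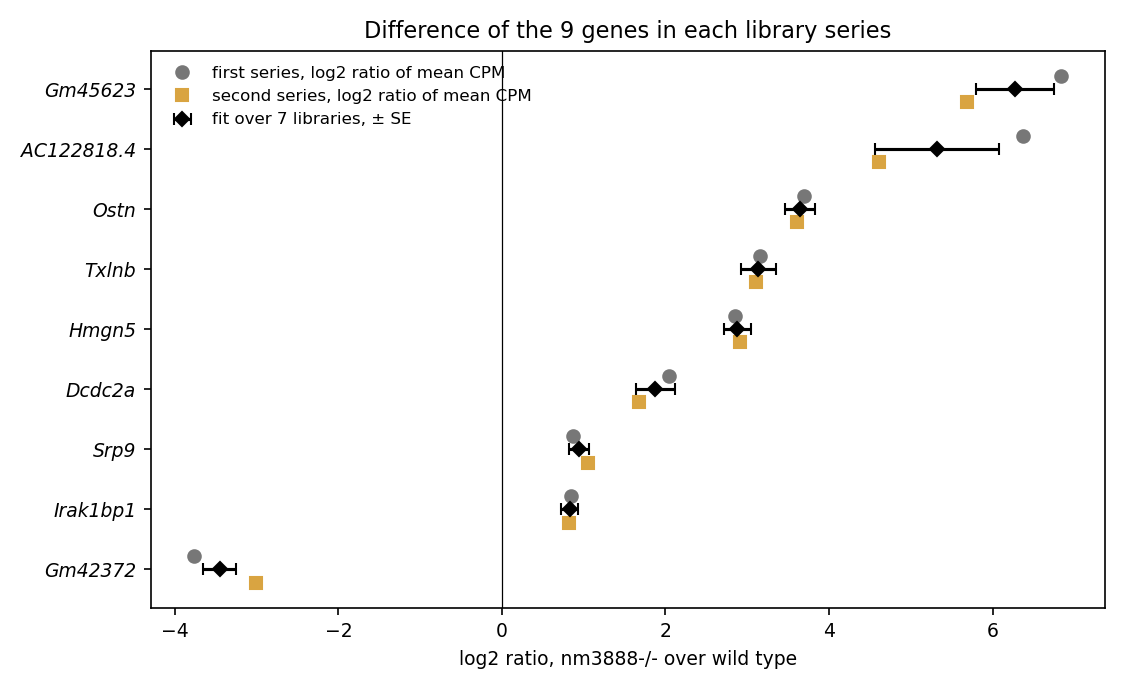
Log2 ratio of mutant over wild type (horizontal axis) for the 9 genes, from the fit over 7 libraries (black diamonds, bars are SE) and as the ratio of mean CPM in the first series (gray circles) and in the second (yellow squares). Both series put 8 genes above 0 and *Gm42372* below it, and *Ostn*, *Txlnb* and *Hmgn5* differed little between them.

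Genes of the tissues in which some of the 9 are known were looked at next. None of 6 tested skeletal muscle genes (of 16 listed), 6 bone genes (of 9), 4 germ cell genes (of 10) or 9 genes of cilia and ependyma (of 10) passed the test in either direction, beside 8.54% of all genes. Their median log2 fold changes were 0.22, 0.43, 0.43 and 0.14, against 0.03 over all tested genes. Of 22 tested genes of the silencing machinery, 1 was higher, *Hdac1*, a histone deacetylase (log2 fold change 0.84 ± 0.13 SE, adjusted p = 0.0052, edgeR). *Hdac1* lay at 2.25, 2.33 and 8.76 CPM in wild types 1 to 3, 4.03 and 3.81 CPM in mutants 1 and 2 and 16.6 and 16.2 CPM in mutants 3 and 4, so the groups overlapped across the series but not within them. The *Hdac1* call was lost without wild type 3 (adjusted p = 0.072). None of 6 tested MEF2 factors and MEF2-binding deacetylases passed, *Mef2d* at 287 ± 14.5 and 273 ± 19.8 CPM (adjusted p = 0.77, edgeR). Over all these family, pathway and tissue lists, 5 of 112 tested genes were higher and 2 lower.

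Markers of other cell types were checked in the same libraries, and 5 of the 53 tested were called (9.43%, beside 8.54% of all genes). Yet every one of these lists had a median log2 fold change above that of all tested genes (0.03) and of Purkinje markers (0.10). The medians were highest for microglial (0.63), glial (0.62), granule cell (0.57) and oligodendrocyte (0.55) markers. Lower medians were found for unipolar brush cell (0.33), endothelial (0.20) and interneuron (0.19) markers. The 8 granule cell markers summed to 413 to 503 CPM in wild type and 568 to 1093 CPM in the mutant without overlap, although none of the 8 passed the test on its own. The 10 oligodendrocyte markers summed to 458 to 664 and 622 to 1117 CPM, with *Cnp* and *Cldn11* called higher. Of the 10 glial markers, *Gfap* was higher and *Hopx* lower (summed 847 to 1059 and 643 to 1181 CPM), and of 4 tested unipolar brush cell markers *Calb2* was higher (summed 1846 to 2261 and 1548 to 1841 CPM). No gene of the microglial (summed 7.24 to 16.2 and 7.84 to 20.1 CPM), endothelial (26.4 to 47.7 and 44.1 to 61.8 CPM) or interneuron lists (2630 to 3953 and 2633 to 3710 CPM) passed. All 5 calls were lost without wild type 3 (edgeR adjusted p = 0.065 to 0.28), and with the replicate block *Hopx*, *Cldn11*, *Cnp* and *Calb2* were no longer called (edgeR adjusted p = 0.056, 0.058, 0.055 and 0.073). No marker of these 8 lists was at 0 in all libraries. The part of other cells in the levels of the 9 genes was not tested.

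The position of the 9 genes was set against *Rreb1* because linked NOD-derived sequence is likeliest there. *Rreb1* lies at chr13:37778400-37952005, and 2 of the 9 share its chromosome, *Dcdc2a* at 12.7 Mb and *Gm45623* at 19.0 Mb from its start, on opposite sides. The other 7 lie on 7 other chromosomes. On chromosome 13, 4 of the 103 tested genes within 10 Mb of *Rreb1* were higher and 9 lower (12.6% called), and 10 of the 163 at 10 to 20 Mb were higher and 15 lower (15.3% called, *Dcdc2a* and *Gm45623* included). Further away on that chromosome 8.54% of 445 were called, and on all other chromosomes 8.44% of 16910. These distances were chosen after the values were seen, and no variant was read from the libraries, so a strain difference at any of the 9 genes was not tested.

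The genes beside the 9 were looked at for the same reason. Within 1 Mb of the 9 gene starts, 112 other genes were tested, of which 4 were higher and 10 lower (12.5%, against 8.54% of all tested genes), with a median log2 fold change of 0.02. With the replicate block 7 were called. The clearest exception was *AC122818.3*, which begins 13.4 kb upstream of *AC122818.4* on the same strand and lay at 0.119, 0.119 and 0.137 CPM in the wild types and at 2.99, 1.37, 2.09 and 0.597 CPM in the mutant (log2 fold change 3.66 ± 0.59 SE, adjusted p = 0.0064, edgeR). Its mutant libraries fell in the same order as those of *AC122818.4*, mutant 1 highest and mutant 4 lowest. *Calm2*, a calmodulin gene and the tested neighbour on the other side, did not pass the test (log2 fold change -0.08 ± 0.16 SE, adjusted p = 0.81, edgeR).

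Beside *Ostn*, *Uts2b*, the gene of a urotensin-related peptide 62.8 kb away on the opposite strand, rose from 0.904 ± 0.290 to 2.60 ± 0.837 CPM (SD, n = 3 and n = 4; log2 fold change 1.46 ± 0.32 SE, adjusted p = 0.025, edgeR), and its call was lost with the replicate block (adjusted p = 0.082) and without any library other than mutants 1 and 3. *Gmnc*, on the other side of *Ostn*, was under 1 CPM in all libraries and did not pass (adjusted p = 0.089, edgeR), except without mutant 1 (adjusted p = 0.042). Beside *Dcdc2a*, *Mrs2*, the gene of a mitochondrial magnesium channel within 36 kb, fell from 185 ± 15.7 to 92.2 ± 22.1 CPM (fell by 0.96 ± 0.14 on the log2 scale, adjusted p = 0.0034, edgeR), so *Dcdc2a* and its neighbour differed in direction, and *Nrsn1* on its other side did not pass (adjusted p = 0.22, edgeR). Of the 14 tested genes within 1 Mb of *Dcdc2a*, 3 were called, *Mrs2* among them and all lower, where 8.54% of all tested genes were called. Beside *Gm45623*, neither *Smad5* nor *Trpc7* passed, with adjusted p (edgeR) of 0.91 and 0.46. The nearest tested neighbours of *Txlnb* (*Cited2* and *Gm7584*), *Hmgn5* (*5730416F02Rik* and *Sh3bgrl*), *Gm42372* (*Pnmal1* and *Ccdc8*), *Irak1bp1* (*Gm37837* and *Phip*) and *Srp9* (*Enah* and *Degs1*) did not pass either.

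**Figure D5:**
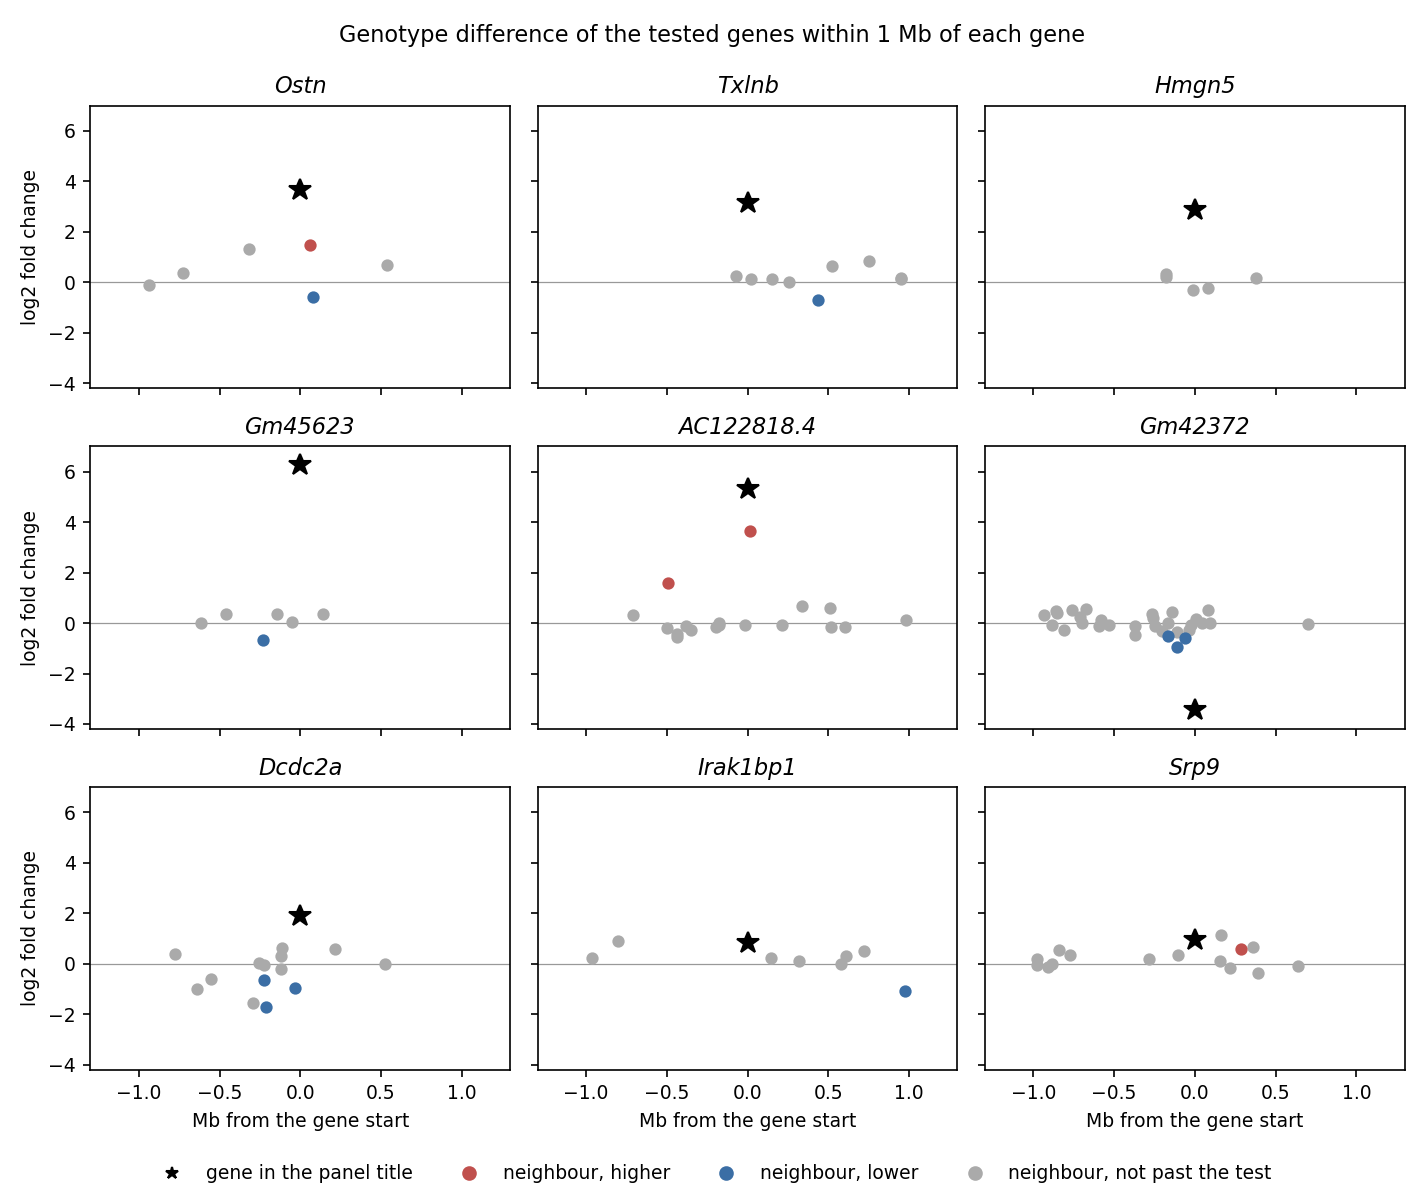
Log2 fold change of mutant over wild type (vertical axis) for each of the 9 genes (star at 0) and for the tested genes within 1 Mb on either side (horizontal axis, Mb from the gene start in chromosome direction), in red if called higher, blue if called lower and gray otherwise. The stars of *Ostn*, *Txlnb*, *Hmgn5*, *Gm45623*, *AC122818.4* and *Dcdc2a* stand above all their neighbours, and a red point at 3.66 stands beside *AC122818.4*.

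The genes whose course over the 7 libraries was most like that of *Ostn*, by root mean square distance of log2 CPM relative to the wild-type mean, were *F630042J09Rik* (0.41), *Fosb* (0.41) and *Txlnb* (0.46). For *Txlnb* they were *Hmgn5* (0.33), *Rtl1* (0.34) and *Fosl2* (0.37), and for *Hmgn5* they were *Stx1a* (0.25), *Fosl2* (0.30) and *Vsig8* (0.33). *Ostn*, *Txlnb* and *Hmgn5*, on 3 chromosomes, thus had each other or shared genes among their nearest, and 2 of the shared or near genes, *Fosb* and *Fosl2*, encode subunits of the AP-1 transcription factor. *Fosb* lay at 0.316, 0.475 and 0.566 CPM in the wild types and at 6.44, 7.90, 8.05 and 8.63 CPM in the mutant. These likenesses describe 7 libraries that share a genotype contrast. The distance is taken from the wild-type mean, so it largely follows the size of the genotype difference, on which the 9 genes were chosen. Genes with a similar rise come out as near for that reason, and a common regulation was not tested.

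A low wild-type level with a rise of this size was uncommon but not limited to the 9 genes. Of 3063 tested genes with a wild-type mean under 1 CPM, 37 had a fitted rise of more than 4-fold, among them *Ostn*, *Gm45623* and *AC122818.4*. *Txlnb* and *Hmgn5* lay just outside, at wild-type means of 1.32 and 1.69 CPM. A gene this low can pass the filter through its mutant libraries alone, so the number is a description. The most abundant in the mutant beside these 3 were *Fosb* (7.76 ± 0.929 CPM), *Vamp8*, a SNARE of endosomes and lysosomes (5.88 ± 0.914 CPM), the olfactory receptor gene *Olfr1302* (5.74 ± 5.05 CPM), *Samd9l*, an interferon-responsive gene (5.00 ± 1.37 CPM), and *Creb5*, a transcription factor of the CREB and ATF family (3.61 ± 1.20 CPM), as mean and SD of 4 mutant libraries. *Olfr1302* shared the wide spread of *Gm45623*, from 1.86 CPM in mutant 4 to 13.1 CPM in mutant 2.

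Promoters were read for 6 of the 9 genes, *Hmgn5*, *Gm45623*, *Gm42372*, *Dcdc2a*, *Irak1bp1* and *Srp9*, from RefSeq (GRCm38.p6, 250 bases before to 50 after the RefSeq gene start). For *Irak1bp1* that start lies downstream of the one in the count files, and the window (chr9:82829556-82829855) lies inside the gene as counted. They were searched on both strands for AP-1 (TGANTCA, in 7.81% of 32851 promoters), CRE (TGACGTCA, 1.79%), a NEUROD-type E-box (CAGATG, 17.2%), the E-box CACGTG (7.15%), CCAAT (37.4%), TATAAA (13.6%) and the MEF2 site (0.557%). CCAAT was found in *Hmgn5*, *Gm45623*, *Gm42372* and *Srp9*, CRE in *Gm42372* and CACGTG in *Irak1bp1*. AP-1, the NEUROD-type E-box, TATAAA and the MEF2 site were found in none of the 6, which says only that these letters are not in these windows. The promoters of the gene with the highest ratio, of the X-linked gene and of the gene that was lower are shown, with CCAAT (or its reverse complement ATTGG) and CRE in capitals. They are *Gm45623* at chr13:56753778-56754077 (minus strand), *Hmgn5* at chrX:109013331-109013630 (minus strand) and *Gm42372* at chr7:16982833-16983132 (plus strand).
Gm45623: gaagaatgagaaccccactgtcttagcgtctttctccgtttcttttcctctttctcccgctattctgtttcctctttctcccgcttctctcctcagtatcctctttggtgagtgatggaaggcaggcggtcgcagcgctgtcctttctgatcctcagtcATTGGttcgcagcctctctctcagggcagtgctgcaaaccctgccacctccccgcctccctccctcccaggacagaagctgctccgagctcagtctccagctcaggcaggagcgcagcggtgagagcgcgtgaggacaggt
Hmgn5: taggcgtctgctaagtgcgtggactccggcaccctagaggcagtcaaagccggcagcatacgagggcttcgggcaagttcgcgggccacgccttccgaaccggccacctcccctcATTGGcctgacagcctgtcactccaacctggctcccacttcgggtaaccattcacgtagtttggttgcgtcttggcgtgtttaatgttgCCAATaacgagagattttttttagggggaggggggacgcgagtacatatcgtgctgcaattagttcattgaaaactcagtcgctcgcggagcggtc
Gm42372: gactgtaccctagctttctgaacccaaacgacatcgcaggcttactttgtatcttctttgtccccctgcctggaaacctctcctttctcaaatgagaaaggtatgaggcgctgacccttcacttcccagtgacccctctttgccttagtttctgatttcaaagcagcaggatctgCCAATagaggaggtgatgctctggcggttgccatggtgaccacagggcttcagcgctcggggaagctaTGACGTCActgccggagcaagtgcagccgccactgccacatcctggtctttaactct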

How the data were processed

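RNA bound to tagged ribosomes was measured in 7 libraries, 3 wild type and 4 *nm3888*-/-, each from 1 mouse. The authors trimmed and de-duplicated the reads, aligned them to mm10 (a Bowtie2 folder for the first series and a STAR folder for the second, per the file headers) and counted read pairs per gene by strand with featureCounts 2.0.1 on GENCODE M25. The deposited values are raw counts. How aligners place reads of near-identical copies can affect such genes.

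Genotypes were compared by edgeR's quasi-likelihood test (edgeR 4.0.16, limma 3.58.1, R 4.3.3) with TMM normalization, filterByExpr, the library series as a term and Benjamini-Hochberg adjustment over 17621 genes, and the fit was tested on simulated data. The 9 genes and all lists were chosen with earlier results of these data known. The text names the 9 genes, *Rreb1*, called genes of each family or pathway list (up to 4 per direction, or the most abundant), called cell type markers, nearest tested neighbours, the 3 genes most alike to *Ostn*, *Txlnb* and *Hmgn5*, and the 5 most abundant other genes low in wild type. Copies were found by BLAST 2.17.0 of GENCODE M21 transcripts (90% identity, 100 bases). Gene names came from the reference tables. Alternatives were RLE size factors, no filter, DESeq2 1.42.0, other covariates, the first series alone, other windows and leaving out each library. Same-numbered libraries correlated in their deviations from the group means (r = 0.914, 0.946 and 0.96 over 17621 genes), which comes from series membership, since different numbers in one series did so as well (0.926 to 0.956). Within the first series the differences of libraries 1 and 2 correlated at 0.035 between genotypes. One gene of the lists is not reported here.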

Additional observations from a re-analysis of the deposited data

Results flagged for a closer look

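*Gm13736*, the processed pseudogene of *Srp9*, differed in its genotype effect between the library series (interaction -6.41 ± 0.41 SE on the log2 scale, adjusted p = 0.0015, edgeR), with 40.4 and 49.9 CPM in wild types 1 and 2, 16.0 CPM in wild type 3, 47.5 and 32.5 CPM in mutants 1 and 2 and 0.135 and 0.199 CPM in mutants 3 and 4. The cause was not tested. Among the 4 mutants, *Gm42372* in mutant 3 (12.8 CPM, nearest other 8.23 CPM) and *Irak1bp1* in mutant 2 (31.9 CPM, nearest other 35.9 CPM) stood apart by Dixon's test, as 2 flags in 18 tests over the 9 genes, of which chance gives about 1 in 20 groups.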

How the results depend on the processing

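The direction of all 9 genes was kept in each of 14 alternative settings, with log2 fold changes of 3.55 to 3.74 for *Ostn*, 2.98 to 3.25 for *Txlnb*, 2.78 to 2.97 for *Hmgn5*, 5.97 to 6.98 for *Gm45623*, 4.72 to 6.31 for *AC122818.4*, -3.76 to -3.35 for *Gm42372*, 1.63 to 2.05 for *Dcdc2a*, 0.78 to 0.89 for *Irak1bp1* and 0.86 to 1.06 for *Srp9*. Sex in place of the series left 4 of the 9 called higher (*AC122818.4*, *Dcdc2a*, *Irak1bp1* and *Srp9* lost their call), 102 genes called in all, 2 list genes and 1 neighbour, and turned *Stx4a* to -0.26 and *Hdac1* to -0.19 on the log2 scale, both uncalled. No batch term gave 7 of the 9 called higher (*AC122818.4* lost its call), 309 genes, 2 list genes and 4 neighbours. The first series alone gave 679, 3 and 6. The replicate block, a pairing in which mutant 4 has no partner and adds nothing, gave 812 genes and 7 neighbours and, beside *Npr1*, *Stx4a*, *Tirap*, *Uts2b*, *Hopx*, *Cldn11*, *Cnp* and *Calb2*, changed no call among the 36 genes outside the 9 for which it was read. DESeq2 called 2048 genes (791 higher and 1257 lower), 14 list genes, 22 neighbours and 81 interactions, no filter 2060 genes (731 higher and 1329 lower), 12 list genes and 370 interactions, and a window of 2 Mb 27 neighbours of 231. Leaving out 1 library gave 599 to 1425 genes (599 without wild type 3, 751 without wild type 2, 889 without wild type 1, 917 without mutant 2), 8 to 8 of the 9 genes called higher, 3 to 8 list genes (3 without wild type 3, 4 without mutant 2 or 4), 6 to 15 neighbours (6 without wild type 2 or 3) and 10 to 32 interactions (32 without mutant 3). The causes were not tested. Depth limits *AC122818.4* in wild type, where it had 1, 6 and 23 counts. Without wild type 1 it was still called higher, at a log2 fold change of 4.94.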
